A study of Homo sapiens with 7 samples.

Results

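ITGAL, ITGAM, ITGAX and ITGAD encode the alpha subunits of the leukocyte integrins and lie on chromosome 16. They are described here by the peaks of the vitamin D receptor (VDR) that lay in the gene body or within 50 kb of it. Coordinates are of hg19: the bodies are chr16:30483983-30534506 for ITGAL, chr16:31271288-31344213 for ITGAM, chr16:31366509-31394318 for ITGAX and chr16:31404633-31437826 for ITGAD. The 4 genes were chosen by name, with the peak values of these lists already known, among them the fold of a strong hormone-only site before ITGAM. The contrast between hormone and solvent at these genes is therefore given as a description, with no test. Peaks that shared at least 1 bp were merged into sites, and 9 of 28993 sites fell at the 4 genes.

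The cells were THP-1, an established human monocyte-like line that came from a leukaemia of that lineage. They received 100 nM of 1α,25-dihydroxyvitamin D3 (1,25(OH)2D3, below 1,25D) or its solvent, 0.1% ethanol (EtOH), for 8 h. VDR-bound DNA was then recovered by ChIPmentation, in which a transposase inserts sequencing adapters into immunoprecipitated chromatin. Each treatment had 3 libraries with 1 peak list each, and 1 input library from cells with no treatment was not used here. The labels do not tie the replicates to separate cultures, so the spread between lists may be technical. No genetic change is named for any group, and the lists hold no expression values against which the line could be checked.

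Each alpha subunit pairs with the beta subunit encoded by ITGB2 to form an adhesion receptor. ITGAL forms LFA-1, which binds ICAM proteins when leukocytes adhere and cross the vessel wall. ITGAM forms Mac-1, a receptor for complement fragments and fibrinogen and a common marker of monocytic differentiation, ITGAX forms a related complement receptor of monocytes and dendritic cells, and ITGAD forms a receptor found on some macrophages. VDR is a nuclear receptor that binds DNA with its partner RXR, typically at paired half-sites with 3 bases between them, and 1,25D is a classical inducer of myeloid differentiation.

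At these genes the 1,25D lists held 16 peaks in all and the EtOH lists 2. The lists of 1,25D replicates 1 to 3 held 3, 6 and 7 peaks there, or 5.33 ± 2.08 (mean ± SD, n = 3). The EtOH lists held 1, 1 and 0, or 0.667 ± 0.577 (n = 3). No EtOH list reached the lowest 1,25D list, although over the part of the genome that all 6 lists cover (chromosomes 1 and 10 to 15, and 16 up to position 50293713) the EtOH lists held more peaks, 22290 against 13274. At a fold enrichment of 5 or more, the 1,25D lists held 2, 2 and 3 peaks at the genes and the EtOH lists none, against 2469 and 764 such peaks in all. A fold enrichment is the authors' value for a peak over the caller's background. A peak that is not listed did not pass the caller's threshold, which does not show that VDR was absent.

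**Figure D1:**
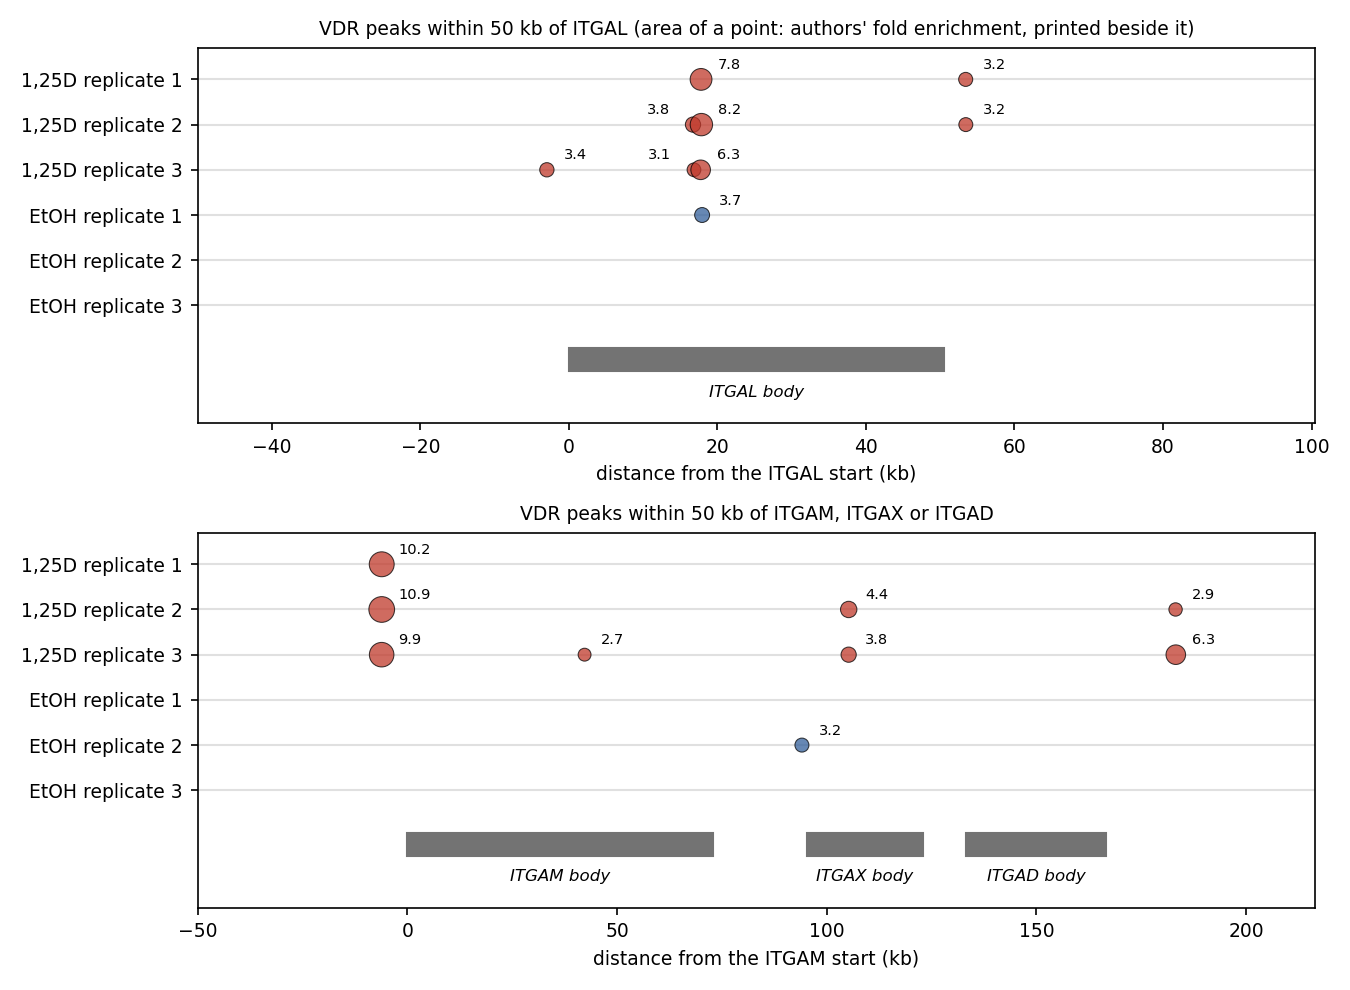
Peaks of the 6 lists at the 4 genes, with the distance of each peak's centre from the ITGAL start (upper panel) or the ITGAM start (lower panel) in kb and 1 row for each library. The area of a point is the authors' fold, printed beside it, red is 1,25D and blue is EtOH, and grey bars are the gene bodies. The largest points lie 6.1 kb before ITGAM, in all 3 1,25D rows, and the 2 EtOH points lie inside ITGAL and just before ITGAX.

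The 9 sites differed in the lists that held them. A single site, before ITGAM, was hormone-only, meaning that every 1,25D list held it and the EtOH lists did not, as was true of 1.70% of all sites. Another, inside ITGAL, was held by every 1,25D list and by 1 EtOH list, which makes 2 sites in every 1,25D list beside 4.20% of all sites. Sites in 2 or more 1,25D lists and in no EtOH list numbered 5 (3.89% of all sites), sites in any EtOH list 2 (71.7%) and sites in a single list 3 (89.8%). The genes were proposed with this contrast in view, so these shares stand only as background. Of the 646 sites on the covered part of chromosome 16, 53 were in 2 or more 1,25D lists and no EtOH list.

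Single libraries decided several of these small counts. The 5 sites became 1 without 1,25D replicate 2 and 2 without 1,25D replicate 3. Hormone-only sites went from 1 to 4 without 1,25D replicate 1, to 2 without 1,25D replicate 3 and to 2 without EtOH replicate 1, since fewer lists had to hold or lack them. Sites in every 1,25D list, whatever the EtOH lists held, numbered 5 without 1,25D replicate 1. Without EtOH replicate 1 or 2, only 1 site was in any EtOH list. In both replicates 1, the list ended at a lower highest p (0.00433 for 1,25D and 0.00431 for EtOH) than in the other lists (0.00978 to 0.00997). Within replicates 1 alone, 2 sites were in the 1,25D list only, and within replicates 2 and 3, 5 sites were in both 1,25D lists and no EtOH list.

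The site before ITGAM, chr16:31264953-31265404, was the strongest at any of the 4 genes. Its centre lay 6.11 kb before the ITGAM start, outside every gene body of the 4. The fold was 10.2 in 1,25D replicate 1, 10.9 in replicate 2 and 9.91 in replicate 3, or 10.3 ± 0.50 (mean ± SD, n = 3), and none of the EtOH lists held it. The 1,25D lists lay close together: the SD was 4.84% of the mean. Over the 492 hormone-only sites of the covered part the median was 16.7% (quartiles 10.6% and 25.2%), but those sites were not matched for fold to this one. The authors' p-values were 1.42e-18, 2.10e-19 and 5.92e-18. Within its own list the peak ranked 191 of 5203, 176 of 3647 and 256 of 4424 by fold.

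Among those 492 sites, whose median mean fold was 4.86, the site before ITGAM ranked 7 by mean fold, and of the 19 on chromosome 16 it ranked 1. Its fold was known when the genes were chosen, so these ranks only describe the site. Sites of this strength were mostly also listed without hormone. Of the 205 sites in all 1,25D lists with a mean fold at least as high, 7 (3.41%) were in no EtOH list. These are the same 7 that set its rank, the site itself included. Of the 172 with a mean fold between 0.8 and 1.2 times its own, 30 were in no EtOH list, 33 in 1, 34 in 2 and 75 (43.6%) in all 3. The lowest folds in the EtOH lists were 1.40, 1.72 and 1.63, by replicate, and the medians 3.63, 3.40 and 3.01. The lowest fold of a list is not the threshold at a given place. These values therefore do not tell what EtOH fold could have gone unlisted at this site.

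**Figure D2:**
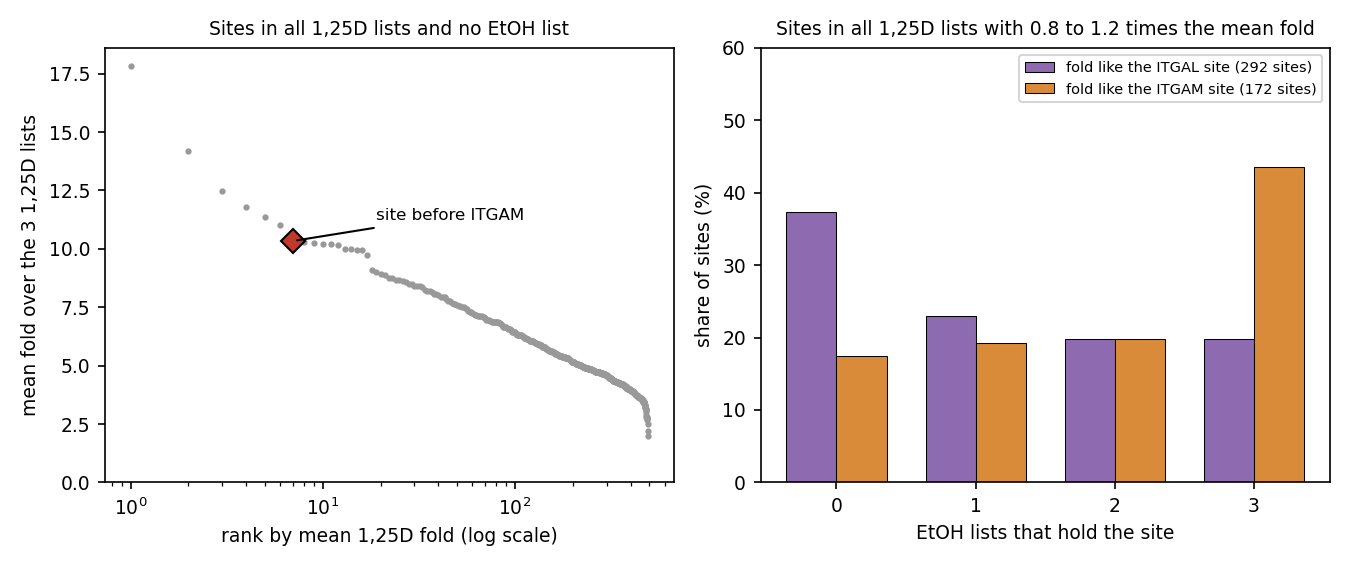
Left, mean fold over the 3 1,25D lists against rank (log scale) for the 492 hormone-only sites, with the site before ITGAM as a diamond at rank 7. Right, share in % of the sites in all 1,25D lists that 0, 1, 2 or 3 EtOH lists also held, for 292 sites with a mean fold 0.8 to 1.2 times that of the ITGAL site and 172 with one that close to the ITGAM site, where the bar for all 3 EtOH lists stands at 43.6%.

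The 1,25D libraries also placed the ITGAM site alike. Peaks ran from 31265026 to 31265365, from 31264988 to 31265403 and from 31264953 to 31265404, with lengths of 339, 415 and 451 bp and centres within 17 bp of each other. The whole of the shortest peak, 339 bp, was common to all 3. These peaks were shorter than the median of peaks of like fold (0.8 to 1.2 times) in their lists, which was 464, 598 and 476.5 bp. In replicates 1 and 2 they were below the lower quartile (390 and 506 bp), and in replicate 3 between the quartiles (381.75 and 631.25 bp). The same direction held at the site inside ITGAL that every 1,25D list held. Its peaks were 375, 466 and 306 bp long against medians of 388, 515 and 354 bp. However, all 3 lay between the quartiles (308.5 and 492.75, 435 and 650.75, and 284 and 463.5 bp).

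Near the ITGAM start itself no list held a peak: the closest peak edge was 5.88 kb away. The RefSeq promoter table (GRCh38.p14) matched 1 of the 4 genes, ITGAM. The 250 bases before its start in that table, chr16:31259725-31259974 of GRCh38.p14 on the plus strand, are printed below. Distances of peaks are counted from the hg19 start, and the starts of the builds were not matched. Capitals mark a VDR-type half-site.

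ITGAM promoter: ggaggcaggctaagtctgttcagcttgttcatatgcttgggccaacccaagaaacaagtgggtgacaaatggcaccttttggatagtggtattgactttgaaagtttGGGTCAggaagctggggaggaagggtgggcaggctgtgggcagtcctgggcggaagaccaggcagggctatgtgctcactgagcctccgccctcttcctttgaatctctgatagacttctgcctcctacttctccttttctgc

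The half-sites searched on both strands were AGGTCA or AGTTCA or GGGTCA or GGTTCA, and this window held 1, GGGTCA. Of the 35116 promoters of the same length in the table, 33.8% held at least 1. No pair of half-sites in the same direction with 3 bases between was found in the ITGAM window, and 0.0655% of all promoters held such a pair. This describes letters only, and the sequence under the peaks was not analysed here, since it would have to be read from hg19.

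Inside the ITGAM body there was 1 further peak, in 1 list. It lay at chr16:31313496-31313638, 42.3 kb from the start, with a fold of 2.73 in 1,25D replicate 3 and a p of 0.00648. Only 6.44% of the peaks in that list had a lower fold, so it was among its weakest.

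ITGAL carried the second strongest site, at chr16:30501573-30502059, inside the gene body and 17.8 kb from the start. Its fold was 7.81 in 1,25D replicate 1, 8.24 in replicate 2 and 6.32 in replicate 3, or 7.46 ± 1.01 (mean ± SD, n = 3). EtOH replicate 1 listed it with a fold of 3.67, and EtOH replicates 2 and 3 did not list it. Every 1,25D fold was above the EtOH fold, although folds from separately processed lists were not tested against each other. Within its list the 1,25D peak ranked 316, 326 and 587, above 93.6%, 90.8% and 86.3% of the peaks, while the EtOH peak stood above 50.8% of the peaks of its list.

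The EtOH peak lay at the far end of the ITGAL site. The 1,25D peaks ran from 30501592 to 30501967, from 30501593 to 30502059 and from 30501573 to 30501879, with centres within 100 bp of each other. The EtOH peak ran from 30501849 to 30501996, so its centre lay 145 bp beyond the mean 1,25D centre. It shared 118 bp with the peak of 1,25D replicate 1, all of its 147 bp with that of replicate 2 and 30 bp with that of replicate 3. A length of 147 bp was the shortest in that EtOH list and also its median. Among the 247 sites in all 1,25D lists and 1 EtOH list, whose median mean fold was 5.38, the ITGAL site ranked 73. On chromosome 16 it ranked 1 of 9 in that class. Among all 1217 sites in all 1,25D lists, whatever the EtOH lists held, it ranked 385, and on chromosome 16 it ranked 9 of 48.

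**Figure D3:**
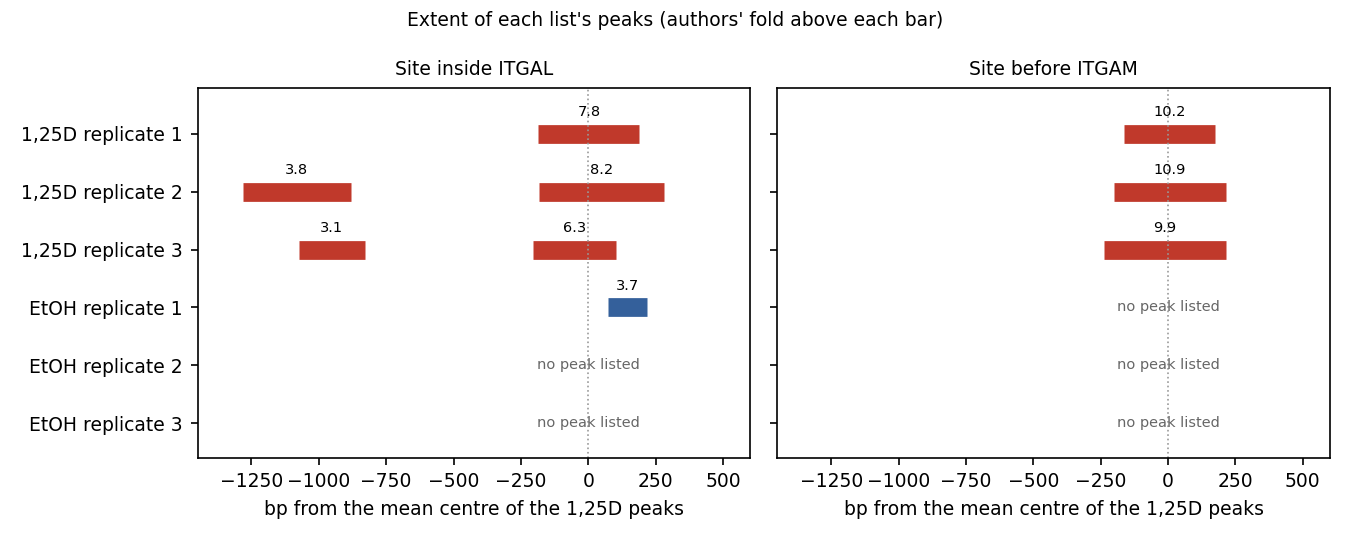
Extent of each list's peaks in bp from the mean centre of the 1,25D peaks, at the site inside ITGAL (left) and the site before ITGAM (right), with the authors' fold above each bar, red for 1,25D and blue for EtOH. The 3 bars before ITGAM share a centre within 17 bp, while the EtOH bar inside ITGAL covers the far end of the site, and 2 lists hold a separate weaker peak before it.

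A weaker site lay 625 bp before that one, at chr16:30500494-30500948. Its fold was 3.82 in 1,25D replicate 2 and 3.09 in replicate 3, or 3.46 ± 0.52 (mean ± SD, n = 2), and the other 4 lists did not hold it. The centres of the 2 peaks were 130.5 bp apart. Whether the pair inside ITGAL is 1 broad site or 2 was not tested.

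Past the ITGAL end, by 2.91 kb, a site at chr16:30537323-30537510 was listed in 1,25D replicate 1 with a fold of 3.25 and in replicate 2 with 3.20. Both values were below the middle of their lists, above 24.4% and 33.1% of the peaks. This was the only one of the 4 sites in exactly 2 1,25D lists that 1,25D replicate 1 held. On the other side of the gene, 2.96 kb before the start, chr16:30480948-30481090 was in 1,25D replicate 3 alone, with a fold of 3.37. None of these ITGAL sites except the strong one was in an EtOH list.

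ITGAX had a site inside its body, at chr16:31376442-31376652 and 10.04 kb from the start. It was in 1,25D replicate 2 with a fold of 4.41 and in replicate 3 with 3.81, or 4.11 ± 0.42 (mean ± SD, n = 2), and in none of the other 4 lists. Both peaks began at the same base, 31376442, and their centres were 13 bp apart. They stood above 70.1% and 60.8% of the peaks of their lists.

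The only peak at the 4 genes that was confined to an EtOH list also lay near ITGAX. It was at chr16:31365317-31365465, 1.12 kb before the start, in EtOH replicate 2 with a fold of 3.23. That list was the longest over the part that all 6 cover, with 11317 peaks against 5251 and 5722 in the other EtOH lists, and 43.4% of its peaks had a lower fold. Both ITGAX sites also fall within 50 kb of ITGAM and of ITGAD, because the 3 genes are only 22.3 kb (ITGAM to ITGAX) and 10.3 kb (ITGAX to ITGAD) apart. The values of these genes are therefore not independent of each other.

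ITGAD had no peak in its body in any list. The nearest site of its own was 16.7 kb past the end, at chr16:31454340-31454683, in 1,25D replicate 2 with a fold of 2.94 and in replicate 3 with 6.32. Among the sites at the 4 genes that more than 1 list held, the standing within the lists differed most here: the peak stood above 17.1% of the peaks of replicate 2 and above 86.3% of those of replicate 3, and the mean was 4.63 ± 2.39 (mean ± SD, n = 2). The value in replicate 3 was the same as at the ITGAL site, and 22 peaks of that list carried this fold. In RefSeq's gene order for GRCh38, COX6A2 and ZNF843 follow ITGAD, so genes other than integrins lie on that side.

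**Figure D4:**
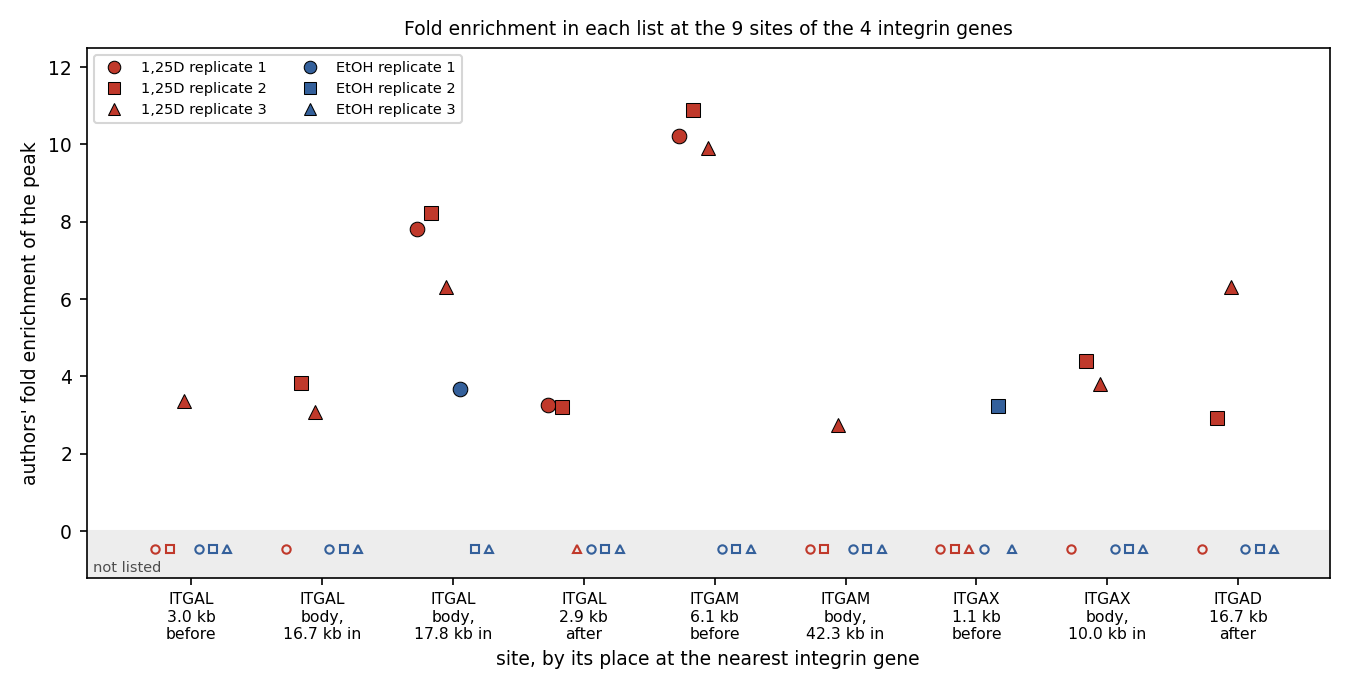
The authors' fold in each list at the 9 sites, ordered along the chromosome and labelled by the nearest integrin gene, with red for 1,25D, blue for EtOH and the shape for the replicate. Open marks in the grey strip are lists without a peak at the site. The 1,25D points of the site before ITGAM lie between 9.91 and 10.9 and those of the strong ITGAL site between 6.32 and 8.24. All other points, the EtOH point of the ITGAL site at 3.67 included, lie at 4.41 or below, except 1 at 6.32 past ITGAD.

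The 4 sites in exactly 2 1,25D lists, which were 2 at ITGAL, 1 inside ITGAX and 1 past ITGAD, had folds of 2.94 to 6.32 and p-values of 5.69e-09 to 0.000914. The list of 1,25D replicate 1, whose highest p was 0.00433, held 1 of the 4. Its own signal at the sites it lacked is not known. Lists of 1,25D replicates 2 and 3 held more of the 4 sites. Over the covered part, replicate 1 had the most peaks of the 3, 5203 against 3647 and 4424. Why its list lacked these sites was not tested. Peaks at the genes formed 0.0577%, 0.165% and 0.158% of the peaks after 1,25D, by replicate, and 0.0190%, 0.00884% and 0% after EtOH.

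The surroundings show how these stretches compare with others of equal length. The ITGAL window of 150523 bp held 8 peaks of the 1,25D lists and 1 of the EtOH lists, where the medians over 5465 consecutive windows with at least 1 peak were 1 and 3. The window from ITGAM to ITGAD, 266538 bp long, also held 8 and 1, where the medians over 3303 windows were 3 and 5. The total number of sites was near the median in both, 4 against a median of 4 and 5 against a median of 6. Of the 5465 and 3303 windows, 6.06% and 15.0% held 8 or more 1,25D peaks, and 26.4% and 13.1% held 1 EtOH peak or none. Windows with no peak in any list were left out, so these are not shares of the whole covered part. Both conditions held for 18 (0.329%) and 14 (0.424%) windows, a corner that the genes' own values set. This is a description, since the genes were proposed from these lists.

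**Figure D5:**
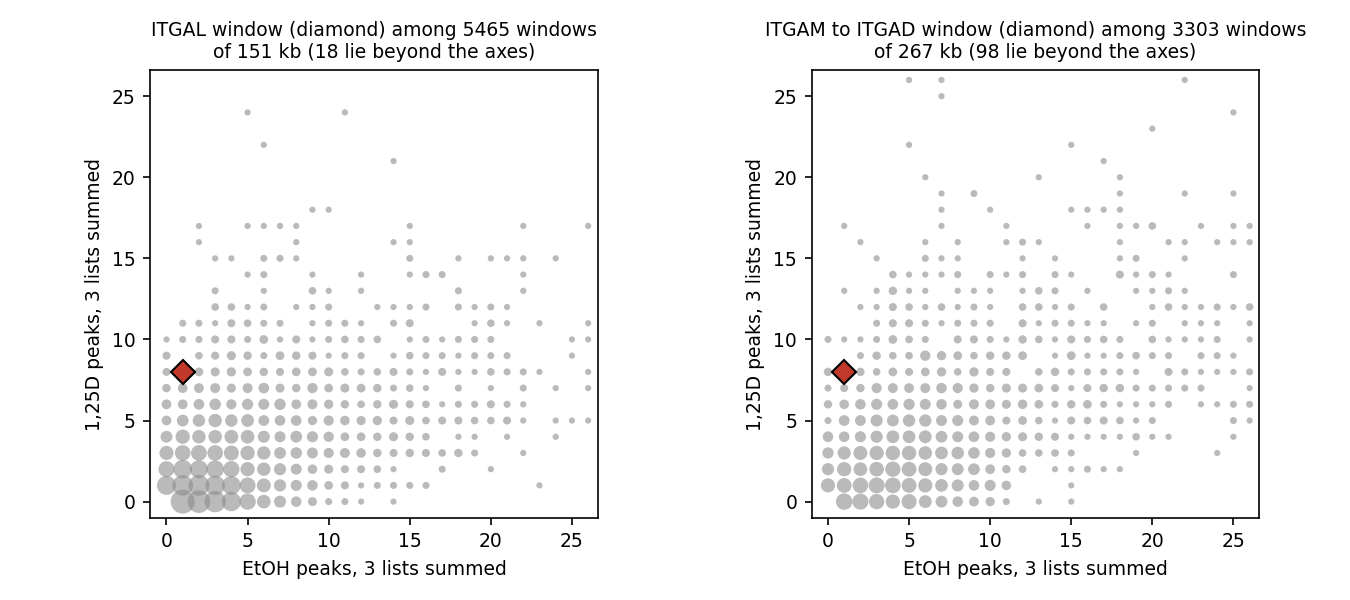
Peaks of the 3 1,25D lists against peaks of the 3 EtOH lists in consecutive windows with at least 1 peak. The windows are as long as the ITGAL window (left, 5465 windows) or the window from ITGAM to ITGAD (right, 3303 windows). Larger points stand for more windows, and a diamond marks the genes. Both diamonds stand at 8 1,25D peaks and 1 EtOH peak, above the bulk of windows and to its left.

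The limit of 50 kb also set which sites were counted. A site called in all 6 lists, chr16:31214233-31215041, lay 6.25 kb outside the ITGAM window and 49.9 kb from the hormone-only site. Its folds were 5.37, 8.40 and 6.87 after 1,25D and 4.10, 4.40 and 3.21 after EtOH, by replicate. Every 1,25D fold was above every EtOH fold, but folds from separately processed lists were not tested against each other. How often the same holds at other sites listed in both treatments was not counted. RefSeq's gene order for GRCh38 places TRIM72 and PYDC1 before ITGAM. Just outside the ITGAL window, by 1.78 kb, was a peak of EtOH replicate 2 alone with a fold of 2.95. Of the counted sites, the one closest to the limit was that past ITGAD, 33.1 kb inside it.

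Between the ITGAL and ITGAM windows lay 637 kb with 11 sites, of which 2 were in all 1,25D lists and 1 of those in no EtOH list. The ITGAL site had no other site in all 1,25D lists within 323 kb, and the nearest site in all 6 lists was 434 kb away.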

How the data were processed

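The submitters' processing notes name hg19 (GRCh37), Bowtie 1.1 and MACS2, an aligner and a peak caller. Their settings, the use of the input and any removal of duplicates are not given there. Each of the 6 lists belongs to 1 library and gives, per the file headers, a fold enrichment (a ratio over background) and a p-value for each peak. The lists hold no counts, so the depth behind a peak is unknown and no counting interval can be given. Starts are printed as deposited, which may be off by 1 bp, and a length is end minus start.

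As used here, 3 lists stop in mid-line. The incomplete line was dropped, and all counts were limited to the part of the genome that the 6 lists cover. Peaks sharing at least 1 bp were merged into sites, and where a list had several peaks at a site its highest fold was used. Ranks and percentiles were taken within each list. Windows of equal length were laid end to end from the start of each chromosome, and those with no peak in any list were left out. The merging step was tried only on simulated lists whose planted sites lay far from each other and from the random peaks. Close sites and short overlaps, such as those inside ITGAL, were not simulated. Python 3.11.15 with pandas 2.3.3 was used.

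Gene bodies and members were chosen with earlier results of these data known, as were the alternatives. At each gene every site in 2 or more lists was to be named with all its values, as well as the site of highest fold, and with only 9 sites all are named. Planned counts near partner and ligand genes, and motifs under the peaks, needed an hg19 annotation or genome and were not run. Columns belonging to other series numbered 0.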

Additional observations from a re-analysis of the deposited data

How the results depend on the processing

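No paired analysis was possible because no result here comes from a test: by choice none was run, since the genes were proposed with this contrast known. By replicate number, the 1,25D and EtOH lists held 3 and 1, 6 and 1, and 7 and 0 peaks at the genes. Depth is unknown, so it cannot be said how many reads stand behind a peak, and with 3 lists a treatment 1 peak more or less moves these counts.

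Without each 1,25D replicate in turn, the mean fold was 10.06 to 10.6 before ITGAM and 7.07 to 8.03 at the strong ITGAL site. A mean of 2 of the 3 values cannot move by 1 SD of those 3. These fold ranges, and percentiles recomputed in the same way, therefore do not test stability. Each 1,25D list had 1 peak at these sites, so using the mean fold of a list's peaks changed nothing. Taken on chromosome 16 alone, the mean percentile of either site moved by less than 1 SD. With peaks of fold 5 or more, 3 sites remained in any list and 0 in an EtOH list. Without an EtOH peak, 2 were in 2 or more and 2 in all 1,25D lists. The strong ITGAL site was among these only because its EtOH peak, of fold 3.67, fell below that limit. The mean number of peaks was 2.33 per 1,25D library and 0 per EtOH library. With windows of 100 kb, 15 sites were in any list and 5 in an EtOH list. With equal list lengths of 3647 peaks, 1 site was in an EtOH list. Leaving out each library in turn gave 1 to 6 sites in 2 or more 1,25D lists and no EtOH list, 1 to 4 in all 1,25D and no EtOH lists, 2 to 5 in all 1,25D lists and 1 to 2 in any EtOH list. Within replicates 1, a comparison chosen after seeing the data, 3 sites were in any list, 2 in the 1,25D list only and 1 in the EtOH list. Within replicates 2 and 3, 5 were in both 1,25D lists, all without an EtOH peak, and 1 in an EtOH list. Windows of 10 kb, a 50% overlap and 1 highest p for all lists (0.00431) kept each count within 1.5 times.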
